A study of Zea mays with 6 samples.

Results

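Far peaks were m6A peaks found in both m6A-seq replicates of a maize F1 hybrid whose summit lay more than 5000 bp from every annotated entry. A peak is a stretch of the genome where RNA pulled down with an antibody against m6A, N6-methyladenosine, exceeded the untreated input RNA. Peaks of replicate 1 on chromosomes 1 to 10 were kept where at least 1 bp overlapped a peak of replicate 2, and these are called high-confidence peaks. Of 17022 high-confidence peaks, 1148 (6.74%) were far peaks. The summit lay inside an entry in 14103 (82.9%), which are called genic peaks, and in the remaining 1771 (10.4%) it lay outside entries but no more than 5000 bp away. The entries were the 45578 genes and non-coding RNAs listed in the FPKM tables, on the B73 RefGen_v4 assembly.

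The plants were 14-day-old seedlings of the hybrid of inbreds B73 and Mo17, grown under normal conditions with no treatment. The series held m6A immunoprecipitate (2 replicates), polysome-bound RNA (2 replicates) and polyadenylated input RNA (2 replicates), all of the same genotype and age. Reads of both parental alleles were placed on the B73 assembly alone, so the peaks carry no record of the parent. The 2 replicates of each kind were separate samples per the labels, and the spread between them is the only error that can be given.

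m6A is laid down on polyadenylated RNA by a methyltransferase complex that recognises a short sequence motif, and in plant messenger RNA it gathers near stop codons and in the 3′ untranslated region. Long non-coding RNAs and transcripts of transposable elements can also be polyadenylated and methylated, and much of the maize genome between genes consists of such elements. An m6A peak far from any annotated gene therefore marks a place where reads of captured polyadenylated RNA were aligned outside the gene models in use. It does not show by itself what kind of RNA that was. Whether its reads also aligned elsewhere in the genome was not examined.

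Far peaks and genic peaks overlapped in fold enrichment, while far peaks had fewer reads at the summit, a lower input background and, within each library, a narrower median width. The fold enrichment is the immunoprecipitated signal over the input background at the summit, scaled to the same depth and with 1 added to both. Its median was 6.71 in far peaks and 6.40 in genic peaks in replicate 1, and 8.63 in far peaks and 7.32 in genic peaks in replicate 2. The far median was thus higher by 0.07 and 0.24 on the log2 scale. The far medians of the 2 replicates lay further apart than that. The middle 50% of far peaks lay between 5.45 and 8.39 in replicate 1, within the 4.66 to 8.85 of genic peaks. In replicate 2 these limits were 6.59 and 11.4 for far peaks and 4.99 and 10.2 for genic peaks. Over all far peaks fold enrichment ran between 2.01 and 26.2 in replicate 1 and between 1.97 and 27.3 in replicate 2. A fold enrichment of 10 or more was seen in 174 far peaks (15.2%) and 18.3% of genic peaks in replicate 1, and in 422 far peaks (36.8%) and 26.6% of genic peaks in replicate 2.

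The median width was 102 bp for far peaks and 149 bp for genic peaks in replicate 1, a difference of -47 bp. In replicate 2 it was 159 bp for far peaks and 188 bp for genic peaks, a difference of -29 bp. The far median of replicate 2 thus lay above the genic median of replicate 1, although far peaks had the narrower median within each library. On the single chromosomes the far median was the lower on 10 of 10 in replicate 1 and on 9 of 10 in replicate 2, where chromosome 2 was the exception with 187.5 bp in far peaks and 183 bp in genic peaks. Widths of far peaks ran up to 1364 bp in replicate 1 and 2532 bp in replicate 2. Peaks wider than 500 bp made up 1.66% of far peaks (19) and 1.04% of genic peaks in replicate 1, and 5.57% of far peaks (64) and 3.96% of genic peaks in replicate 2. At 300 bp the order was the other way, with 5.92% of far peaks (68) and 9.02% of genic peaks in replicate 1, and 17.2% of far peaks (197) and 17.3% of genic peaks in replicate 2.

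The fold enrichment and the P-value of a deposited peak together fix the number of immunoprecipitated reads at its summit and the input background below it. All 17371 peaks of replicate 1 and all 30378 of replicate 2 came out at a whole number of reads, within 0.002 on the scale of -log10 P. A far summit held a median of 18 reads in replicate 1 and 27 in replicate 2, against 39 and 52 at a genic summit. For a single summit, the exact 95% Poisson interval of 18 reads is 10.7 to 28.4, and that of 39 reads is 27.7 to 53.3. Such intervals cover the counting error of 1 summit only and are not the error of a class median. In replicate 2 the interval of 27 reads is 17.8 to 39.3 and that of 52 reads is 38.8 to 68.2. A summit with 12 reads or fewer was found in 203 far peaks (17.7%) and 4.52% of genic peaks in replicate 1, so the fold enrichment of a single far peak is a coarse value. The median -log10 q, which is larger the smaller the q-value, was 7.91 in far peaks and 13.3 in genic peaks in replicate 1, and 14.1 in far peaks and 18.4 in genic peaks in replicate 2.

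The input background, in reads at the depth of the input library, had a median of 1 below a far summit in both replicates, against 3.26 and 4 below a genic summit. The peak caller replaces a local background that is very low by a genome-wide level, which was 0.826 in replicate 1 and 0.968 in replicate 2. Far peaks sat at this lowest level in 410 cases (35.7%) in replicate 1 and 375 (32.7%) in replicate 2, and genic peaks in 8.59% and 6.80%. With 2 libraries the exact two-sided permutation test of library medians cannot give a p below 0.333, so no difference between far and genic peaks could pass a threshold of 0.05. This exact permutation test gave p = 0.333 for reads and for background, where both far medians lay under both genic medians, and p = 0.667 for fold enrichment, width and -log10 q, where the libraries of the 2 classes overlapped. Paired by library, each of these 5 measures differed in the same direction in both libraries, and the exact paired permutation test gave p = 0.5, the smallest it can give with 2 pairs.

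**Figure D1:**
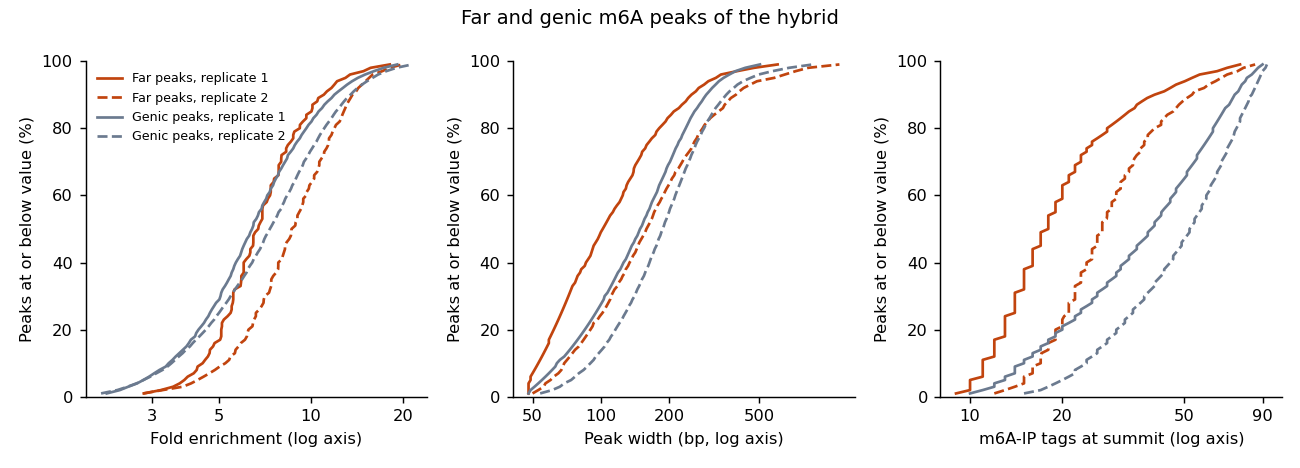
Distributions of fold enrichment, width in bp and reads at the summit for far and genic high-confidence peaks in replicates 1 and 2. Far peaks overlap genic peaks in fold enrichment (medians 6.71 and 6.40 in replicate 1) and have lower medians of reads (18 and 39) and width (102 and 149 bp) there.

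Set beside genic peaks of a like input background, far peaks had the lower fold enrichment. At the lowest background the median fold enrichment was 7.38 in 410 far peaks and 7.83 in 1211 genic peaks in replicate 1, and 9.43 in 375 far peaks and 10.2 in 959 genic peaks in replicate 2. Above that and up to a background of 2 it was 6.71 in far peaks and 7.85 in genic peaks in replicate 1, and 9.31 and 10.5 in replicate 2. Between 2 and 5 it was 5.27 in far peaks and 7.52 in genic peaks in replicate 1, and 6.74 and 8.79 in replicate 2. Above 5, where only 82 and 90 far peaks lay, the medians came closer, at 4.13 in far peaks and 4.36 in genic peaks and at 4.58 and 4.74. No summit held more than 96 reads in either library, and that many reads give a lower fold enrichment at a higher background. Whether this limit bears on the closer medians was not tested. The far median was the lower one in all 4 classes of both libraries, whereas over all backgrounds together it was the higher one. The direction of the comparison thus depended on whether the background was held alike, and this way of comparing was chosen after seeing the data.

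The same held when each far peak was set against the genic peaks whose background lay within 5% of its own. Fold enrichment was below the median of those genic peaks in 715 of 1148 far peaks (62.3%) in replicate 1 and in 708 (61.7%) in replicate 2, and the median log2 ratio was -0.18 in both. Width kept its direction, with a median difference of -21 bp in replicate 1 and -24 bp in replicate 2, and far peaks were the narrower in 698 (60.8%) and 671 (58.4%). The difference in reads shrank by most at the lowest background, to 15 in far peaks and 16 in genic peaks in replicate 1. In replicate 2 it was 22 and 24 there. Above that and up to 2, the medians were 17 and 21 in replicate 1, and 26 and 30 in replicate 2. Between 2 and 5 they were 28 and 40, and 36 and 49. Above 5 they were 48.5 and 61, and 62.5 and 71. At a given background the fold enrichment is set by the reads, so this is not a separate comparison. In replicate 1 the medians of 7.38 and 7.83 at the lowest background are the fold enrichments of 15 and 16 reads. A lower background at far sites went together with the reads, and its part in the other differences was not tested beyond these comparisons.

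**Figure D2:**
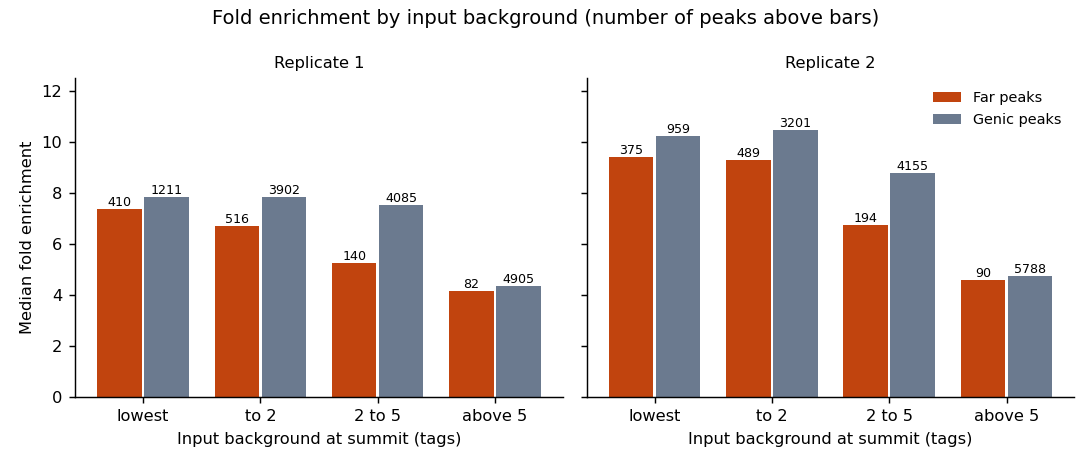
Median fold enrichment of far and genic peaks in 4 classes of input background, for each replicate. The far fold enrichment is below the genic one in every class, by most between 2 and 5 (5.27 and 7.52 in replicate 1, 6.74 and 8.79 in replicate 2).

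The 8 far peaks with the highest mean fold enrichment all stood alone, with no other far peak within 5 kb in the same interval between entries. The highest was on chromosome 3 (chr3:99535060-99535315), with a fold enrichment of 26.2 in replicate 1 and 20.5 in replicate 2, from 65 and 76 reads. It lay 23700 bp from the 5′ end of Zm00001d041134, an entry at 1.22 and 0 FPKM in the input RNA. This peak also had a -log10 q of 64.0 and 60.04, so it was not one of the peaks that rest on few reads.

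A second peak on chromosome 3 (chr3:29423480-29423653) reached 21.0 and 22.4, from 45 and 54 reads at the lowest input background, 13912 bp beyond the 3′ end of Zm00001d040154, which had 3.88 and 3.93 FPKM. On chromosome 4, chr4:4993704-4993839 reached 22.03 and 21.1 and chr4:91187228-91187437 reached 18.8 and 19.2, and the nearest entries, Zm00001d048757 and Zm00001d050472, were listed at 0 FPKM in both input libraries and both polysome libraries. These 3 peaks differed between replicates by less than 0.1 on the log2 scale. On chromosome 6, chr6:158751627-158751788 reached 18.3 and 27.3, from 39 and 66 reads, 6231 bp from Zm00001d038502, which was listed at 0 in all 4 FPKM tables. On chromosome 2, chr2:100193836-100193994 moved the other way, at 22.4 in replicate 1 and 15.8 in replicate 2, with 48 and 58 reads and a background of 0.826 and 2. The reads were thus higher in replicate 2 while the fold enrichment was lower there.

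Both peaks of this group on chromosome 5 had an expressed nearest entry, one with a mean of at least 1 FPKM in input RNA. The peak chr5:222969614-222969890 reached 19.2 and 20.5, from 68 and 76 reads, 13065 bp beyond the 3′ end of Zm00001d018555, with 17.7 and 16.6 FPKM in input RNA and 17.7 and 18.4 in polysome RNA. The peak chr5:177552057-177553073 was the widest of the 8, at 1017 bp in replicate 1 and 1832 bp in replicate 2. Its fold enrichment was 17.1 and 20.3, and its summit lay 5070 bp from the 5′ end of Zm00001d016827 (2.19 and 2.13 FPKM), close to the limit of 5000 bp. Of the 8 nearest entries, 4 were listed at 0 in both input libraries, as were 32.3% of all entries.

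The distance between a far summit and the nearest entry had a median of 13434.5 bp, and the middle 50% lay between 7859 and 26818.5 bp. Between 5 and 10 kb lay 426 far peaks (37.1%), between 10 and 20 kb 318 (27.7%), between 20 and 50 kb 244 (21.3%), between 50 and 100 kb 108 (9.41%) and beyond 100 kb 52 (4.53%). Median fold enrichment followed no steady order over these classes. It was 6.47, 6.74, 6.92, 6.48 and 6.47 with increasing distance in replicate 1, and 9.02, 8.60, 8.83, 8.62 and 7.69 in replicate 2. Width was largest at both ends, at 117.5 bp between 5 and 10 kb and 120.5 bp beyond 100 kb in replicate 1, against 91 to 96 bp in between. Reads at the summit lay between 17 and 19.5 in replicate 1 and between 26 and 30.5 in replicate 2 in every class.

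The farthest peak (chr3:72667162-72667228) lay 438382 bp from ENSRNA049465509, a non-coding RNA entry listed at 0 in both input libraries. It had a fold enrichment of 12.1 from 28 reads in replicate 1 and 6.82 from 50 reads in replicate 2, over backgrounds of 1 and 5. The next were chr7:71479866-71480031, at 339915 bp with a fold enrichment of 5.32 and 5.65, and chr1:119173083-119173177, at 293964 bp with 6.47 and 9.02. The fourth (chr5:75953120-75953325) lay 261158 bp away, had 10.9 and 7.03, and was 1 of a run of 3 far peaks. At the limit itself, the nearest peaks beyond 5000 bp were chr5:14467392-14467439 at 5030 bp (6.92 and 11.05) and chr3:72177697-72177755 at 5031 bp (6.74 and 6.59). With the limit at 10000 bp the far peaks would number 722, and with distances taken to expressed entries only they would number 2481. Just inside the limit of 5000 bp lay chr3:139029783-139029866 at 4997 bp (6.01 and 8.48) and chr4:85196778-85196953 at 4971 bp (7.15 and 9.02).

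Far peaks lay about as often beyond the 3′ end as before the 5′ end of the nearest entry, with 599 (52.2%) on the 3′ side. Peaks outside entries but within 5 kb lay on the 3′ side in 73.2% (1297 of 1771). Among far peaks the 3′ share was 56.6% between 5 and 10 kb, 55.0% between 10 and 20 kb, and 45.1% to 46.2% in the 3 classes beyond 20 kb. The 1148 far peaks shared 714 nearest entries, of which 367 (51.4%) were expressed, with a mean of at least 1 FPKM in input RNA. The share was 67.3% among the nearest entries of peaks within 5 kb and 43.6% among all 45578 entries. The median of the 714 entries was 1.18 and 1.19 FPKM in input RNA and 0.670 and 0.663 FPKM in polysome RNA, and 164 (23.0%) were listed at 0 in both input libraries. The share of far peaks whose nearest entry was expressed was 65.0% between 5 and 10 kb, 60.7% between 10 and 20 kb, 50.4% between 20 and 50 kb, 39.8% between 50 and 100 kb and 48.1% beyond 100 kb. The input libraries gave both these FPKM values and the background under the peaks.

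Nearly as many far peaks lay in runs as alone. A chain was a run of far peaks with no more than 5 kb between neighbouring edges and no entry between them. The files held no strand and no splice junctions for the peaks, so a chain is a run of neighbouring peaks and was not shown to be 1 transcript. The 1148 far peaks formed 146 chains with 535 peaks (46.6%) and 613 single peaks (53.4%), or 759 units in all. Joined by the same conditions, 3765 genic peaks (26.7%) lay in chains. An entry starting between neighbours cuts a run of genic peaks, whereas far peaks so close together leave no room for an entry between them. The shares of far and genic peaks in chains, of any size, are therefore not on an equal footing. Chains of 5 or more held 263 far peaks (22.9%), in 35 chains, and 1174 genic peaks (8.32%), in 170 chains. The largest chain had 17 far peaks, against 21 genic peaks. Of the 146 far chains, 69 were pairs and 34 had 3 peaks. In the alternatives that kept both replicates, the share of far peaks in chains ran between 32.3% (50% overlap of the replicate peaks) and 50.9% (gap of 10000 bp).

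The gap between neighbours in a far chain had a median of 594 bp, and 42.4% of 389 gaps were under 500 bp. In genic chains the median gap was 487.5 bp. A far chain spanned a median of 2240.5 bp, with the middle 50% between 1011 and 4823 bp, and the longest spanned 18488 bp. In the chains of 5 or more the median span was 7234 bp and the peaks themselves covered a median of 17.3% of it. Such chains lay a median of 8298 bp from the nearest entry, 8 of the 35 more than 20 kb away, and in 27 of the 35 the nearest entry was expressed. In 35 chains the run went on past the far peaks to a high-confidence peak that lay inside an entry or within 5 kb of one. Of all far peaks, single ones included, 190 (16.6%) lay in such runs.

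Peaks in chains had a larger median width than single far peaks in both libraries, and they lay nearer to entries. Their median distance to the nearest entry was 11156 bp in chains of 5 or more and 10817.5 bp in chains of 2 to 4. For single far peaks it was 16091 bp. In replicate 2 the median width was 247 bp in chains of 5 or more, 181.5 bp in chains of 2 to 4 and 130 bp in single far peaks, and in replicate 1 it was 128, 108.5 and 91 bp. Where neighbouring peaks of replicate 1 shared a partner in replicate 2, the values of that partner were counted more than once. The 1148 far peaks had 1116 distinct partners, and the effect of this on the replicate 2 medians was not tested. Peaks wider than 300 bp in replicate 1 made up 13.3% of the peaks in chains of 5 or more, 4.78% of those in shorter chains and 3.26% of single peaks. High fold enrichment went the other way in replicate 1, where 10 or more was reached by 6.84%, 8.82% and 21.5% of these 3 sets. In the same order, median fold enrichments were 6.14, 6.71 and 6.92 for replicate 1, but 9.28, 8.21 and 8.63 for replicate 2, so the order of the 3 sets was not the same in both libraries. Within a chain of 5 or more, the highest fold enrichment in replicate 1 was a median of 2.07 times the lowest.

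**Figure D3:**
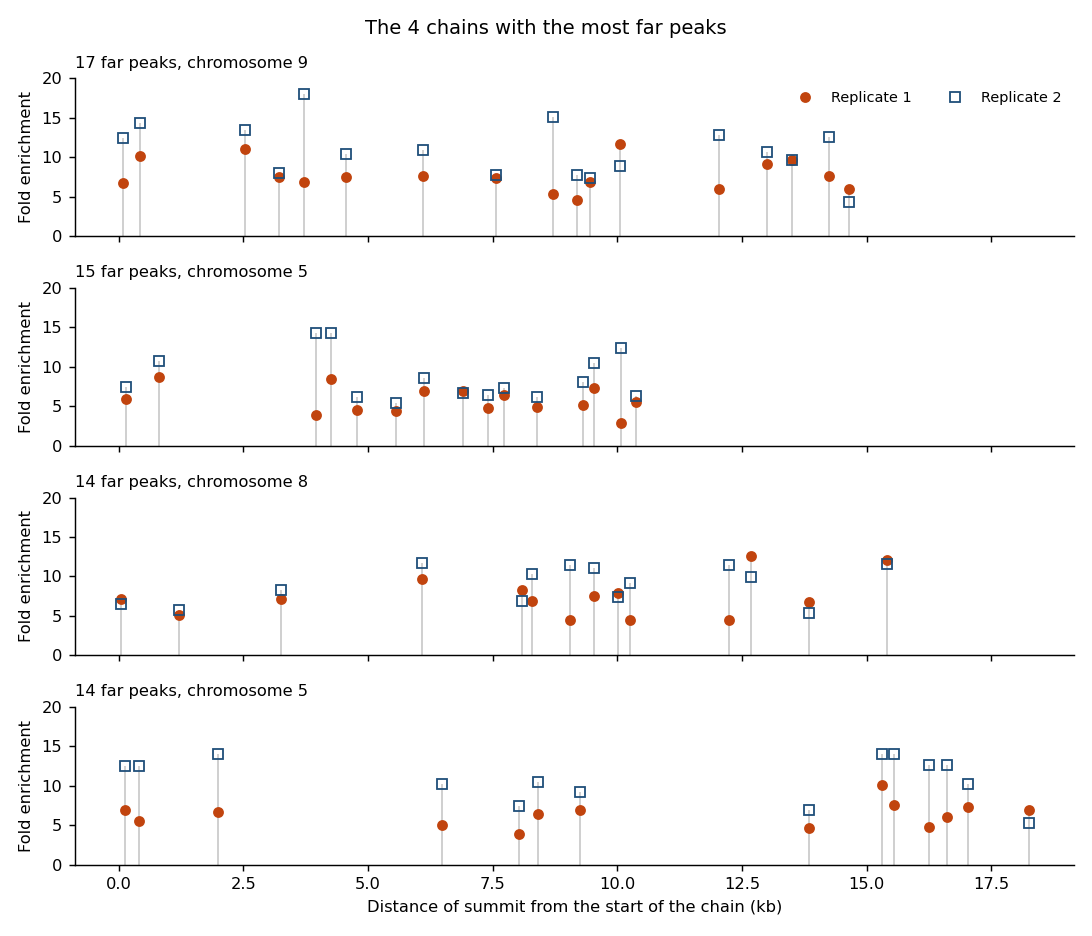
The 4 chains with the most far peaks, each peak drawn at its distance in kb from the start of the chain, with its fold enrichment in replicates 1 and 2. Peaks are spread along the whole of each chain, and in the chain of 17 the highest peak of replicate 1 (11.7) is not the highest of replicate 2 (18.1).

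The largest chain had 17 peaks on chromosome 9, between positions 129803143 and 129817826, a span of 14684 bp of which the peaks covered 20.4%. Its nearest entry, Zm00001d047433, lay 44179 bp away from the closest summit and was listed at 0 in both input libraries. Fold enrichment ran between 4.64 and 11.7 in replicate 1, with a median of 7.54, and between 4.32 and 18.1 in replicate 2, with a median of 10.6. Reads at the summits ran between 9 and 45 in replicate 1 and between 15 and 59 in replicate 2, over backgrounds of at most 3 and 4. The summit with the most reads (chr9:129816430-129816866) had 45 and 59 reads and a fold enrichment of 9.60 and 9.61. The peak with the fewest in replicate 1 (chr9:129812240-129812338) had 9 and 18 reads and 4.64 and 7.81. At chr9:129806760-129806936 the fold enrichment was 6.90 in replicate 1 and 18.1 in replicate 2, with 32 and 44 reads over backgrounds of 3 and 1. Every peak of this chain was called in both replicates by the rule, yet its profile was not the same in each.

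In each of the other 3 large chains, the summit closest to an entry lay on the 3′ side of an expressed one. The chain of 15 on chromosome 5, between 80083932 and 80094355, was the densest of the 4, with 31.3% of its 10424 bp under peaks. Its nearest summit lay 5538 bp from Zm00001d015229, which had 7.09 and 6.47 FPKM, and its fold enrichment had a median of 5.54 in replicate 1 and 7.39 in replicate 2. Of its peaks, 5 of 15 lay nearer to the 5′ side of another expressed entry, Zm00001d015228 (8.88 and 9.01 FPKM). The chain of 14 on chromosome 8, between 54515406 and 54531137, spanned 15732 bp at 10645 bp from Zm00001d009314 (14.7 and 14.4 FPKM), with a median fold enrichment of 7.13 and 9.56. In this chain 3 of 14 peaks lay nearer to the 5′ side of Zm00001d009315 (8.85 and 5.82 FPKM).

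The longest of the 4 was the other chain of 14, on chromosome 5 between 113181255 and 113199742, which spanned 18488 bp with 10.6% of it under peaks. It lay 5306 bp from Zm00001d015724 (2.79 and 2.90 FPKM). Its median fold enrichment was 6.60 in replicate 1 and 11.5 in replicate 2, from 10 to 21 and 12 to 34 reads, and 9 of its 14 summits had the lowest background in replicate 1. Some neighbouring peaks of replicate 1 in this chain had the same peak of replicate 2 as their partner.

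Far peaks were found on all 10 chromosomes, and their share of the high-confidence peaks differed by a ratio of 1.75 between the highest and the lowest. It was 8.60% on chromosome 2 (174 far peaks) and 4.91% on chromosome 1 (129), and it lay between 5.77% and 7.98% on the other 8. Chromosome 2 held 15.2% of all far peaks and 11.5% of all genic peaks, and chromosome 1 held 11.2% and 15.9%. Of the 1641.67 Mb that lay more than 5 kb from entries, 78.0% of the span between the outermost entries, each Mb held 0.699 far peaks, against 85.4 genic peaks per Mb of entries. The chromosomes ran between 0.547 (chromosome 1) and 0.920 (chromosome 2) far peaks per Mb of that territory.

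The chromosomes lay closer together with chains counted once. On chromosome 2, 65 of 174 far peaks (37.4%) lay in 9 chains of 5 or more, whereas on chromosome 1 it was 7 of 129 (5.43%) in 1 chain. With each chain or single peak counted once, the chromosomes ran between 0.416 and 0.529 per Mb, and chromosome 2 had 0.51. With 1 genotype and 1 pair of libraries, no test of chromosomes against each other was made.

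**Figure D4:**
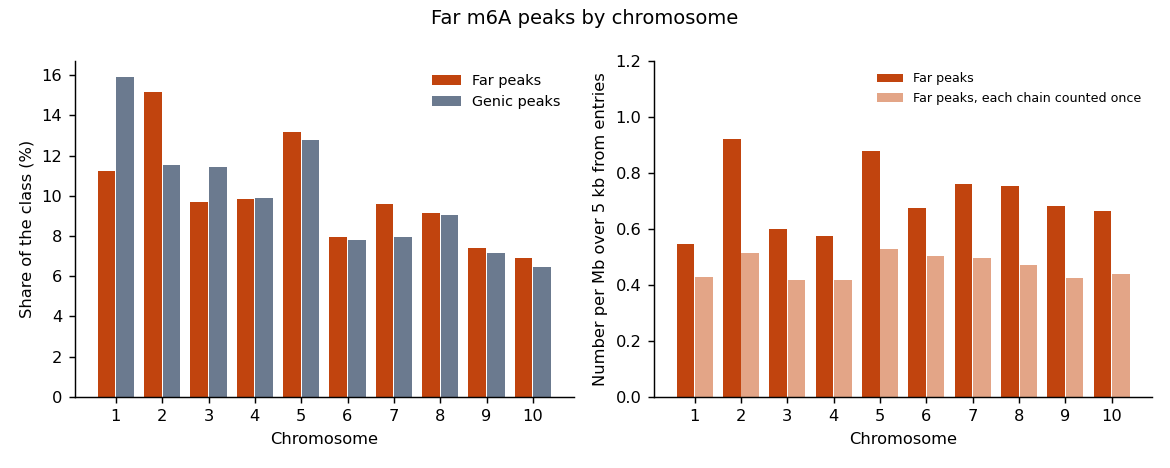
Each of the 10 chromosomes' share of all far peaks and of all genic peaks, and far peaks per Mb of sequence more than 5 kb from entries, also with each chain counted once. Chromosome 2 holds 15.2% of far and 11.5% of genic peaks, and chromosome 1 holds 11.2% and 15.9%. Per Mb, chromosome 2 is highest (0.920) and chromosome 1 lowest (0.547), and the gap is smaller once chains count once.

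Along the chromosomes, far peaks lay more towards the middle than genic peaks. Each chromosome was cut into 10 equal bins between its outermost entries. Bins 3 to 8 held 60.5% of far peaks, 42.4% of genic peaks and 43.9% of entries. The fourth bin alone held 184 far peaks (16.0%) and 5.11% of genic peaks, which is 25.6 far peaks per 100 genic ones, against 4.15 in the first bin and 4.40 in the last. The territory more than 5 kb from entries was also larger there, at 185 Mb in the fourth bin, 148 Mb in the first and 133 Mb in the last. Per Mb of that territory, bins 3 to 8 ran between 0.461 (the eighth) and 0.996 (the fourth) far peaks. Bins 1, 2, 9 and 10 ran between 0.562 and 0.885 (the last). With chains counted once, bins 3 to 8 ran between 0.358 (the third) and 0.519 per Mb, and bins 1, 2, 9 and 10 between 0.447 and 0.622 (the last). The lean towards the middle was thus one of counts. Per Mb, of bins 3 to 8 only the fourth lay above the ninth (0.877) and the last. With chains counted once, all of bins 3 to 8 lay below the ninth (0.533) and the last. Within a window of 1 Mb around the summit, far peaks had a median of 18 entries, with the middle 50% between 10 and 29, and genic peaks had 26, between 18 and 36. Both classes were set by distance to entries, so fewer entries around far summits follow in part from the rule itself.

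**Figure D5:**
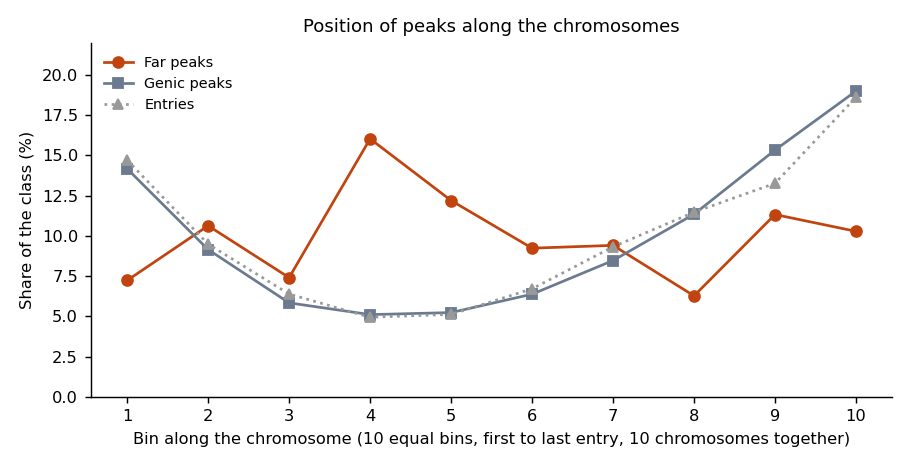
Percent of far peaks, genic peaks and entries in each of 10 equal bins along the chromosomes, summed over the 10 chromosomes between the outermost entries. Far peaks are highest in the fourth bin (16.0%), where genic peaks are at 5.11%, and genic peaks are highest in the last bin (19.0%), where far peaks are at 10.3%.

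Far peaks were few among the intervals that could hold one. Of 24778 intervals between entries with room more than 5 kb from both ends, 682 (2.75%) held a far peak. In 616 of these it was 1 single peak or chain, in 57 it was 2 and in 9 it was 3 or more, and the most far peaks in 1 interval was 19.

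A far peak of replicate 1 was nearly always found again in replicate 2, while the reverse was not the case. Of 1187 far peaks called in replicate 1, 1148 (96.7%) overlapped a replicate 2 peak, and 98.2% of genic peaks did. Of 3475 far peaks called in replicate 2, 1147 (33.0%) overlapped a replicate 1 peak, against 61.4% of genic ones. The 2328 found only in replicate 2 made up 17.6% of the 13250 peaks of that library without a partner. They had a median of 15 reads and a width of 77 bp, and 50.2% of them sat at the lowest background, against 18 reads, 79 bp and 26.0% for genic peaks found only there. Taken from 1 library alone, the far peaks thus numbered 1187 in replicate 1 and 3475 in replicate 2.

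In the 1148 far peaks the fold enrichment was higher in replicate 2 in 862 (75.1%), and the median log2 ratio of replicate 2 over replicate 1 was 0.35. In genic peaks it was higher in 61.2%, with a median log2 ratio of 0.14. The replicates differed by no more than 1.5-fold in 67.6% of far peaks and 71.8% of genic peaks. Across peaks, the log2 fold enrichments of the replicates had a Pearson's r of 0.569 in 1148 far peaks and 0.713 in 14103 genic peaks (Spearman's rho 0.504 and 0.680), and the log2 reads had an r of 0.879 and 0.953. These are descriptions across peaks of the same 2 libraries, and peaks are not independent replicates. The summits lay a median of 12 bp apart in far peaks and 8 bp apart in genic peaks.

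The far peaks least alike between replicates differed in background more than in reads. In the chain of 15, the peak chr5:80093615-80094025 had a fold enrichment of 2.87 in replicate 1 and 12.4 in replicate 2, from 23 and 37 reads over backgrounds of 6 and 1.46. On chromosome 2, chr2:75839832-75839879 had 3.63 and 15.3, from 25 and 37 reads over backgrounds of 5 and 1, at 45617 bp from Zm00001d004016. In both, the reads differed by less than the fold enrichment did.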

How the data were processed

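The m6A peaks, deposited per replicate, were called by the authors with MACS2 at q < 0.01 against the input, after trimming with Trimmomatic 0.35 and alignment with HISAT2 2.1.0 (submitters' processing notes for these versions) to B73 RefGen_v4. Each deposited peak has a score (10 times its -log10 q, cut to a whole number), a fold enrichment, a -log10 P-value and q-value, and a summit. The deposited FPKM values per gene were made by the authors with StringTie. No count table was used, and whether duplicate reads were kept is not given in the sources used here.

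Distances were taken between summits and entry edges, and peaks inside entries served as the comparison. The replicate 2 value of a peak is that of the overlapping peak with the highest fold enrichment, since 36 far peaks had 2 or more. The summit reads and the input background were solved from fold = (reads × scale + 1) / (background + 1) and the Poisson P, with a scale of 0.831 in replicate 1 and 0.798 in replicate 2. One solution was found for 99.5% and 99.3% of peaks, and otherwise the closest was taken. The procedures were tested on simulated data. Library medians were compared with the exact two-sided permutation test, unpaired and paired by library. Analyses used Python 3.11.15, numpy 2.4.6, pandas 2.3.3, scipy 1.17.1 and matplotlib 3.10.9.

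Regions named were the 8 highest by mean fold enrichment, the 4 farthest, the 4 chains with the most peaks (ties by summed fold enrichment), the 2 just over and the 2 just under the limit, the 3 with the highest lower -log10 q and the 2 least alike. Nearest entries of these are named. Single peaks of the chain of 17 were chosen after their values were seen. The far peaks, rules and lists were chosen with earlier results of these data known. Alternatives were other distance limits, overlaps, thresholds, sets of entries, partners and single replicates, and matching on background, other partner choices, leaving out chains and pairing by library were added after seeing the data. Only the 153 entries with microRNA names matched the table of gene names, so entries carry identifiers only and the tissue was not checked against marker genes. Sequence under the peaks was not analysed here.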

Additional observations from a re-analysis of the deposited data

How the results depend on the processing

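Of 118 alternative values, 29 moved and 4 reversed. For fold enrichment and width the direction alone was judged, for numbers a change over 1.5 times, and for other values a change over 1 SD of the single-replicate values. The reversed ones were the log2 fold enrichment of far over genic peaks once input background was held alike (chosen after seeing the data): -0.20 in replicate 1 and -0.18 in replicate 2 over 4 classes, and -0.18 and -0.18 within 5%. The width difference kept its direction in all 29 alternatives but ran between -61 and -21 bp in replicate 1 and between -58 and -21.8 bp in replicate 2. In the alternatives that did not hold background alike, the log2 fold enrichment ran between 0.06 and 0.24 in replicate 1 and between 0.09 (without replicate 1) and 0.41 (expressed entries only) in replicate 2. With a limit of 2000 bp the far share was 10.005%, with 228 chains, a median distance of 8007 bp and a chromosome ratio of 1.61, against 1.75 at 5000 bp. With 10000 bp there were 722 far peaks, 86 chains, 22238 bp and a ratio of 2.14. With expressed entries only there were 2481 far peaks (14.6%), 243 chains, 30183 bp and 1.39. Requiring 50% overlap gave 90 chains, 14432 bp and 1.66. A q of 1e-05 gave 94 chains and 13646 bp. The share of far peaks in chains was 34.0%, 32.3% and 35.8% in these, and 40.4% to 50.9% in the other alternatives with both replicates. All of these counted as unmoved, because the single-replicate shares of 47.1% and 69.7% lay far apart. Counting the peaks of replicate 2 gave 13725 bp and 1.69. Without 1 replicate the far peaks numbered 1187 to 3475 (6.83% to 11.4%), in 155 to 538 chains holding 47.1% to 69.7% of them, at 13642 to 13829 bp, with a ratio of 1.65 to 1.74. The higher ends of number and chains came from replicate 2 alone. Solving with a pseudocount of 0 placed 3.62% and 6.06% of peaks. With the library as a replicate block (added after seeing the data), the mean differences of 0.15 (log2 fold enrichment) and -38 bp had an exact paired permutation p of 0.5, against 0.667 unpaired. Depth limits single far peaks, whose summits held 9 to 92 reads in replicate 1.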

Other observations

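No summit in either library held more than 96 reads, and the narrowest peak was 48 bp wide, so the most reads were 2 times the smallest width. The highest far summit held 92 reads in replicate 1 and 94 in replicate 2. The input background was a whole number, within 0.002, for 59.0% of all peaks in replicate 1 and 54.6% in replicate 2. The immunoprecipitated library was larger than its input by a factor of 1.203 in replicate 1 and 1.25 in replicate 2. Leaving out the ENSRNA entries, which are non-coding RNAs, gave 1159 far peaks in place of 1148, and 8 of the 714 nearest entries of far peaks were of that kind. Of the 1148 far peaks, 1144 had a replicate 2 summit that was also more than 5 kb from every entry. Peaks outside entries but within 5 kb stood between far and genic peaks in reads and in background, with 24 and 35 reads and backgrounds of 1.78 and 2 in replicates 1 and 2.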
